A study of Mus musculus with 6 samples.

Results

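Chaperones bind unfolded proteins and help them reach or regain their folded state. In the cytosol and nucleus, heat shock factor 1 switches on chaperone genes when proteins misfold, by binding heat shock elements in their promoters. In the endoplasmic reticulum (ER), the unfolded protein response does the same through the stress sensors IRE1, PERK and ATF6, and it is best known in lymphocytes that secrete much protein. In the present data 35 genes of these systems were followed in regulatory T (Treg) cells, which restrain immune responses, from mice that have or lack Batf, an AP-1 transcription factor. A gene was measured where the platform annotation assigned at least 1 probe set to it alone. This held for 33 of the 35 genes, with 83 of the 34945 probe sets so annotated, and for 18193 genes in all. They divide into 9 cytosolic members with 25 probe sets, 3 mitochondrial members with 8 and 21 ER members with 50. Hsp90ab1 and Hsf1 were not analysed here.

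The cells came from C57BL/6 mice (spleen and lymph node) and were sorted as CD4+ cells carrying human CD2, which FoxP3hCD2 animals express with Foxp3. There were 3 arrays from FoxP3hCD2.Batf+/+ mice and 3 from FoxP3hCD2.Batf-/- mice, so both groups carry the reporter, and the cells were neither cultured nor treated. The labels do not say whether each array came from a different mouse or from pooled mice, nor in which cells Batf was deleted, so the p-values rest on an array-to-array spread that may be technical. All values are log2 levels set against the middle Batf+/+ array of each probe set. They show how a gene differs between arrays and not how abundant its transcript was, so the labelled cell type cannot be checked by the presence of its markers. In bulk RNA, fewer cells of a type and less RNA per cell cannot be told apart.

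Batf itself was at -0.13, 0 and 0.14 on Batf+/+ arrays 1, 2 and 3 and at -3.13, -3.16 and -2.37 on Batf-/- arrays 1, 2 and 3, far below in each Batf-/- array. Of all 18193 genes 208 (1.14%) changed at a limma adjusted p below 0.05, 151 (0.83%) with less and 57 (0.313%) with more RNA in Batf-/- cells. Across all genes the median difference was 0.0047 on the log2 scale.

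Promoter sequences are shown first, because the members were grouped by the stress systems that act through them. RefSeq sequences (mouse build GRCm38.p6) of the 250 bases before a transcription start were held for 28 of the 35 genes. Hspa1a and Hspa1b encode the 2 stress-inducible HSP70 proteins, lie side by side on chromosome 17 at 34969359-34972156 and 34956429-34959238, and are the genes with the widest spread in the data. Their upstream sequences, at chr17:34972157-34972406 and chr17:34959239-34959488, both on the minus strand, matched at 247 of 250 positions. Capitals mark the heat shock element of 2 units, GAANNTTC, read on both strands, which began 104 bases before the start in both genes and was present in 6.69% of all 32851 windows of this length.

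Hspa1a: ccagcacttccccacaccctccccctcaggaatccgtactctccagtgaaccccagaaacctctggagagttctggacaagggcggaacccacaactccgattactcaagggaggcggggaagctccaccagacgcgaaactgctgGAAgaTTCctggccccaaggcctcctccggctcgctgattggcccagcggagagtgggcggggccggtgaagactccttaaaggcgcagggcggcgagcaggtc
Hspa1b: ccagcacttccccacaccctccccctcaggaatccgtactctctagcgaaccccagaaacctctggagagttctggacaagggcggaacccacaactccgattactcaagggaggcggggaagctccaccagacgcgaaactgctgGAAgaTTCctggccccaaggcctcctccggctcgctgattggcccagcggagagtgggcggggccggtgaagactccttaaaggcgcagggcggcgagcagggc

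The same 2-unit element was found for Dnaja1, and the opposite arrangement, TTCNNGAA (7.17% of all windows), for Hsph1 and Eif2ak3. A heat shock element of 3 units (GAA, TTC and GAA with 2 bases between neighbours), read on both strands, was present in 0.466% of all windows and, among the members, upstream of the mitochondrial chaperonin genes Hspe1 and Hspd1. These genes lie head to head on chromosome 1, and 1 of the 2 windows of Hspd1 held the run of Hspe1 on its other strand. The run of 18 bases is at chr1:55088059-55088076 on the plus strand, 89 bases before the Hspe1 start, and holds overlapping 3-unit and 2-unit matches (capitals).

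Hspe1 and Hspd1: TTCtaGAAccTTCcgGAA

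The ER stress response element (ERSE), which ATF6 recognises together with NF-Y, is spelled CCAAT and CCACG with 9 bases between and was read on both strands. It was present in 0.113% of all windows (37 of 32851) and upstream of 8 of the 19 ER members with a sequence: Hspa5, Hsp90b1, Calr, Canx, Pdia6, Dnajc3, Syvn1 and Creld2. It was found upstream of 0 of the 7 cytosolic and 0 of the 2 mitochondrial members with a sequence. The matches are given as read on the gene's own strand, so those on its other strand read as the reverse complement, with the fixed letters in capitals.

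Hspa5: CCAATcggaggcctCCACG
Hsp90b1: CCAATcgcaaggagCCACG
Hsp90b1, second match: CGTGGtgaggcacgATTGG
Calr: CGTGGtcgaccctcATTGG
Canx: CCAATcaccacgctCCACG
Pdia6: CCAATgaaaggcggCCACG
Dnajc3: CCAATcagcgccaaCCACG
Syvn1: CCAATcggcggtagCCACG
Creld2: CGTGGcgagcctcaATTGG

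Hspa5 encodes BiP, the central ER chaperone, and Herpud1 a protein of ER-associated degradation. Herpud1 held the shorter element ERSE-II (ATTGG and CCACG with 1 base between, both strands), found in 0.0304% of windows. Both upstream sequences are shown whole, at chr2:34771840-34772089 and chr8:94386179-94386428, both on the plus strand, with ERSE or ERSE-II in capitals.

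Hspa5: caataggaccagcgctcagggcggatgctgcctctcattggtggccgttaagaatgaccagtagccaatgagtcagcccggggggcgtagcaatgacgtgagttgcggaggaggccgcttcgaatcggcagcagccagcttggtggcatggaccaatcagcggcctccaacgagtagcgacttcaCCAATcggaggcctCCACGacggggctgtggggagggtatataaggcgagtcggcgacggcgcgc
Herpud1: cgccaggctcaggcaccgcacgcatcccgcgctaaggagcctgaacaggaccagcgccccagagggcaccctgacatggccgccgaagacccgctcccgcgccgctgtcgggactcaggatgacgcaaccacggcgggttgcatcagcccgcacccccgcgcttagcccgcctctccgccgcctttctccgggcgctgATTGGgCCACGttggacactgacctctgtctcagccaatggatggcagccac

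The AP-1 element TGANTCA, the kind of site that Batf and Jun proteins bind, was read on both strands and was present in 6.75% of all windows. Among the members it lay upstream of Bag3, Hspa5, Sec61b, Eif2ak3 and Sel1l. These matches describe letters in a window and are not measured binding sites.

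No member of the 33 was called different between the genotypes by limma, 0 higher and 0 lower, where 1.14% of all genes were called. At an unadjusted p below 0.05 the count was also 0 of 33, against 7.69% of all genes. Their 83 probe sets, tested singly, gave 0 calls against 0.713% of all probe sets, and with the replicate number as a block 0 of 33 members were called against 1.61% of all genes. The smallest adjusted p among the members was 0.802 (Hspe1). The arrays of the genotypes did not overlap for 2 of 33 members, Hspe1 and Hspa9, against 12% of all genes. In both the Batf-/- arrays were the higher, as in 5.5% of all genes, and in 0 members were they the lower, as in 6.55% of all genes. The log2 differences (Batf-/- minus Batf+/+) ran from -0.30 for Bag3 to 0.17 for Hspe1, with a median of -0.023, 13 members above 0 and 20 below. Over all genes 51.8% were above 0.

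For most members the intervals allow only small differences in the mean over probe sets. The 95% interval lay within 0.5 log2 units (1.41-fold) on either side of 0 for 27 of the 33 members, and for 92.3% of all genes. It lay within that bound for 20 of 21 ER members and 3 of 3 mitochondrial members, but for only 4 of 9 cytosolic members. The 6 exceptions were Hspa1a, Hspa1b, Hsph1, Dnajb1, Bag3 and the ER member Dnajb9. Single probe sets of members within the bound can pass it. Examples are 1 each of Sel1l (-0.59 to -0.12), Dnajc3 (-0.64 to -0.049), Hsp90b1 (-0.86 to 0.29) and Pdia4 (-0.13 to 0.51). The intervals of those of Sel1l and Dnajc3 leave out 0, but neither was called. Dim probe sets could not be filtered, so a narrow interval may also come from little signal.

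**Figure D1:**
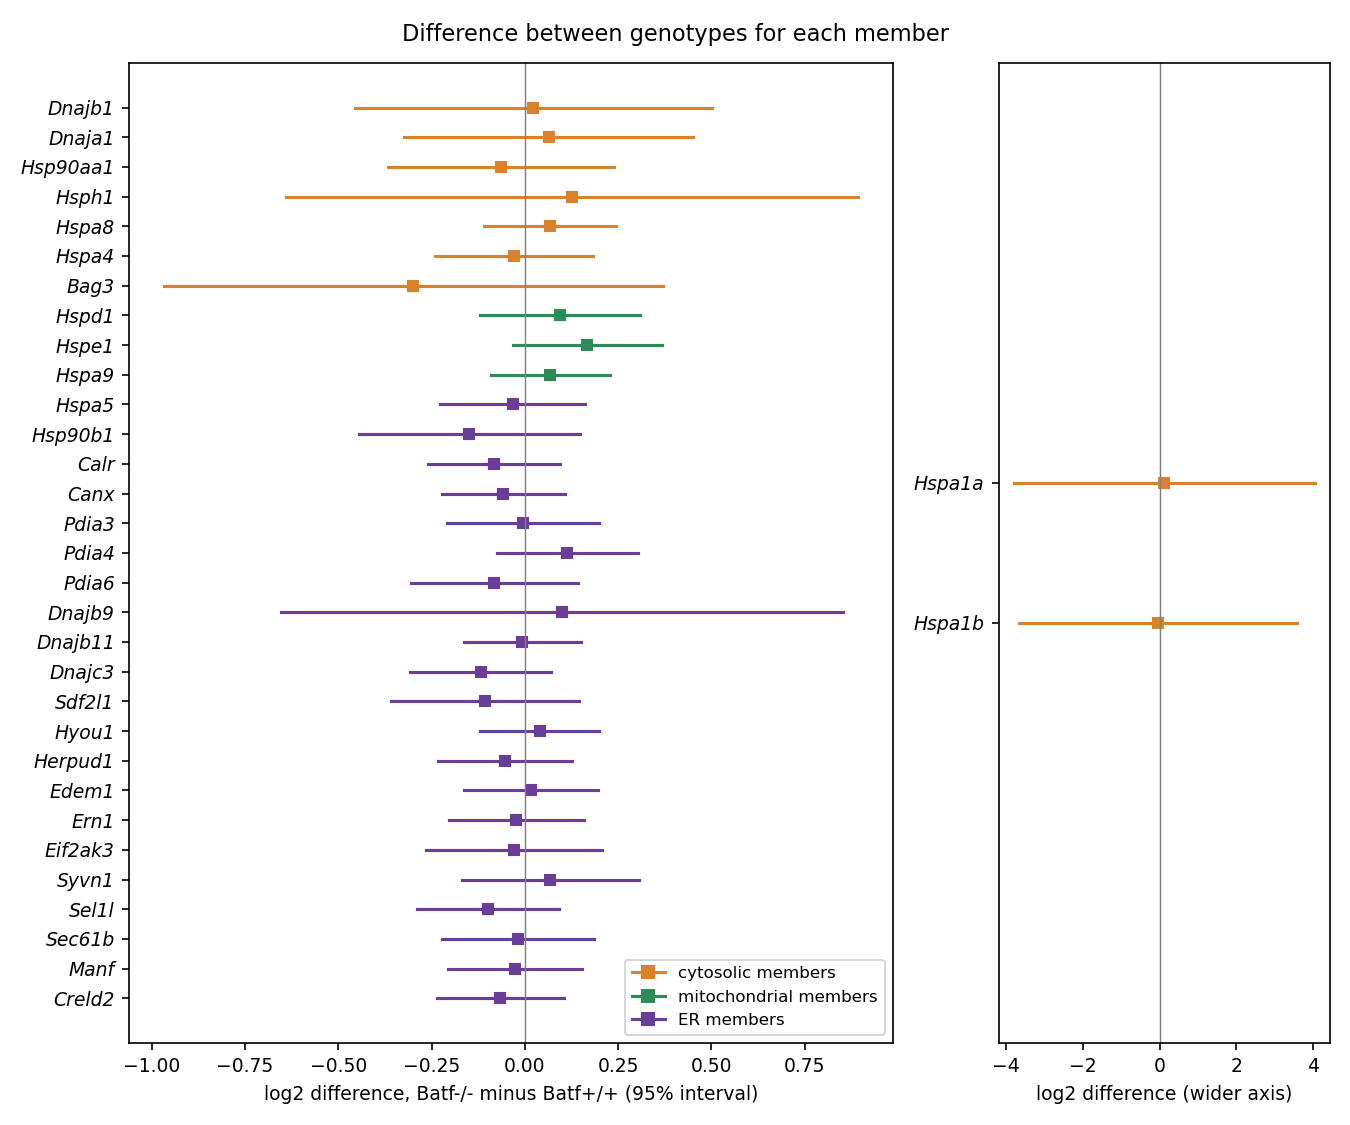
The log2 difference between genotypes (Batf-/- minus Batf+/+, horizontal axis) for each of the 33 members, with squares for the estimate and lines for its 95% interval from limma (n = 3 arrays per genotype). Every interval covers 0, and Hspa1a and Hspa1b need an axis of their own, since their intervals reach about -3.80 to 4.05 and -3.67 to 3.58.

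The inducible HSP70 genes Hspa1a and Hspa1b varied far more between arrays of 1 genotype than between the genotypes. Hspa1a was at 0, 4.51 and -1.37 on Batf+/+ arrays 1, 2 and 3 and at 4.87, -0.45 and -0.91 on Batf-/- arrays 1, 2 and 3. Batf+/+ array 2 and Batf-/- array 1 were therefore high, the other 4 arrays were low, and the genotypes overlapped throughout. From the lowest to the highest array Hspa1a spanned 75.9-fold. Its within-genotype SD, pooled over both genotypes, was 3.15 log2 units, the largest of all 18193 genes, while the log2 difference between genotypes was 0.12 ± 1.73 (limma adjusted p = 1). Errors given with a difference are standard errors over 3 arrays of each genotype.

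Hspa1b followed Hspa1a. It was at 0, 3.93 and -1.75 on the Batf+/+ arrays and at 4.0, -0.47 and -1.47 on the Batf-/- arrays, a range of 53.5-fold. Its within-genotype SD of 2.91 ranked second, and its log2 difference was -0.043 ± 1.60 (adjusted p = 1). Its 3 probe sets ranged from -0.20 to 0.074 in their difference. Hspa1a and Hspa1b are near-identical copies, and transcript sequences were not compared with the probes here, so which of the paired genes a signal came from is uncertain. The next gene in the order of spread, the AP-1 gene Fosb, named after its values were seen, had an SD of 1.34.

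A single array set the sign of the HSP70 differences. For Hspa1a leaving out Batf-/- array 1 gave a log2 difference of -1.73, leaving out Batf+/+ array 2 gave 1.86, and leaving out both gave 0.0061. The Hspa1b values under the same omissions were -1.70, 1.56 and -0.099. With array weights, which were 0.64 for Batf-/- array 1 and 2.21 for Batf+/+ array 2, the differences were -1.79 and -1.72. Adjusted p values in these fits were all at least 0.759.

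Dnajb1, Hsph1 and Bag3, which assist HSP70, had the same order of arrays at a smaller scale. Dnajb1, an HSP40 that delivers clients to HSP70, was at 0, 0.40 and -0.30 in Batf+/+ and at 0.44, 0.046 and -0.31 in Batf-/- cells, a difference of 0.022 ± 0.21. Hsph1, an HSP110 that releases nucleotide from HSP70, was at 0, 0.26 and -0.48 in Batf+/+ and at 0.60, 0.38 and -0.82 in Batf-/- cells, a difference of 0.13 ± 0.34. Bag3, which links HSP70 to selective autophagy, was at 0, 0.39 and -0.53 in Batf+/+ and at 0.17, -0.23 and -0.97 in Batf-/- cells. In each of these 3 genes the arrays numbered 3 were the lowest of their genotype and the groups overlapped. Bag3 had the largest mean difference of any member, -0.30 ± 0.29 (95% interval -0.97 to 0.37, adjusted p = 0.990), with a size above that of 95.7% of all genes but close to its standard error.

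Dnaja1, another HSP40, was at 0.13, 0.0094 and -0.22 in Batf+/+ and at 0.25, 0.23 and -0.38 in Batf-/- cells, again lowest on the arrays numbered 3. The stress-inducible cytosolic HSP90, Hsp90aa1, was at -0.0014, 0.070 and -0.16 in Batf+/+ and at 0.19, -0.13 and -0.34 in Batf-/- cells. One of its 5 probe sets was at -0.36 and another at 0.11 in their genotype difference, neither past the threshold.

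Hspa8 and Hspa4 had much smaller spread than the inducible HSP70 genes. Hspa8, the HSC70 protein of unstressed cells, was at 0.047, 0.037 and -0.045 in Batf+/+ and at 0.18, 0.017 and 0.047 in Batf-/- cells, a difference of 0.068 ± 0.078 (95% interval -0.11 to 0.24). Hspa4, a further HSP110, was at 0.019, 0.067 and -0.12 in Batf+/+ and at 0.074, -0.0038 and -0.19 in Batf-/- cells, a difference of -0.029 ± 0.093. Hspa8 had a within-genotype SD of 0.070, below the median of 0.112 over all genes, and Hspa4 one of 0.116, just above it.

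**Figure D2:**
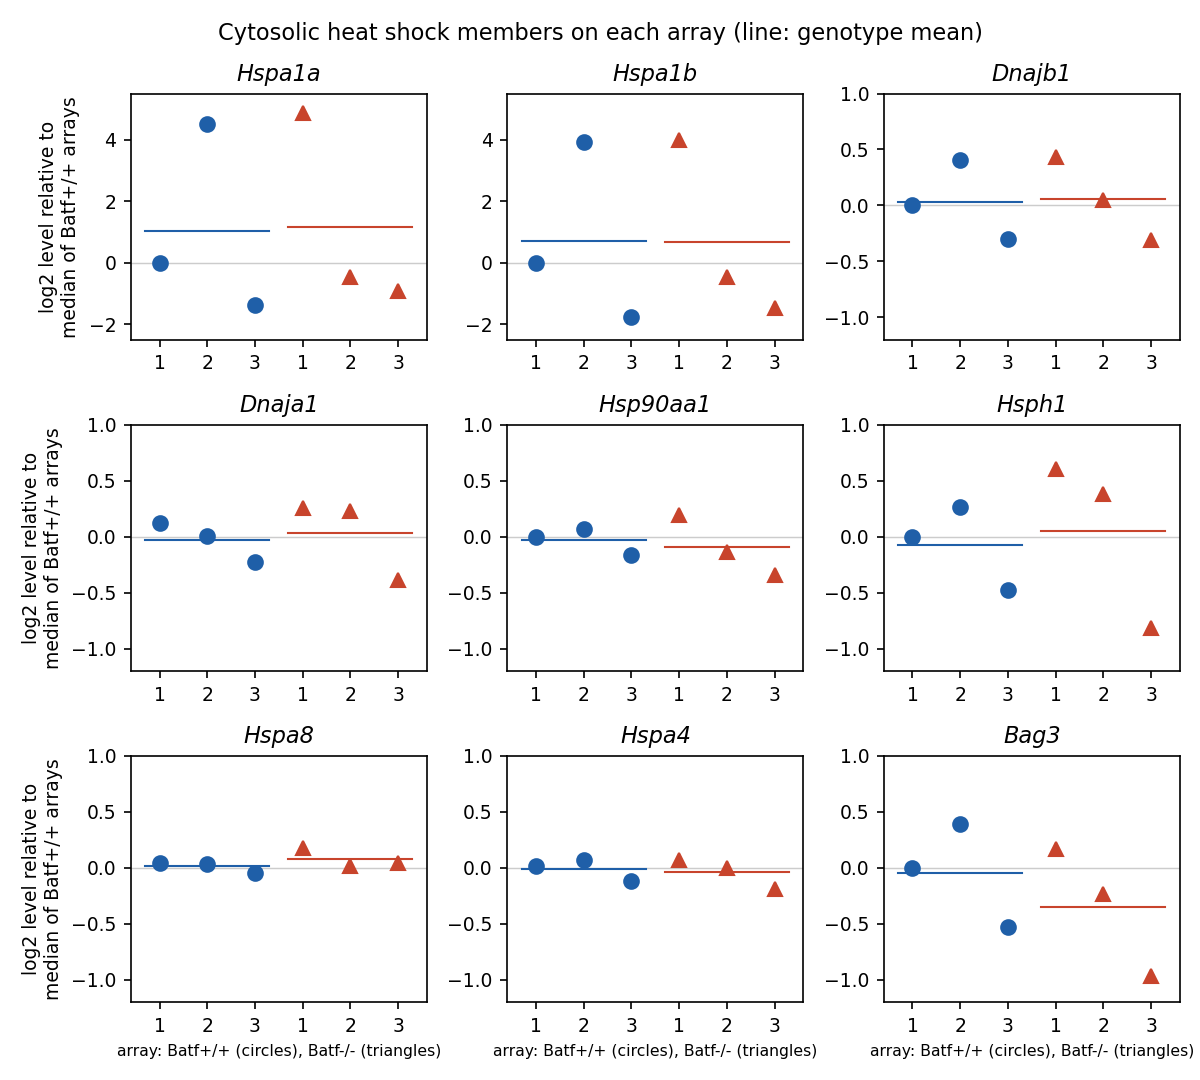
Log2 level of the 9 cytosolic members on each array, set against the middle Batf+/+ array, with circles for Batf+/+, triangles for Batf-/- and a line at the mean of each genotype. Batf+/+ array 2 and Batf-/- array 1 stand at 4.51 and 4.87 for Hspa1a, and its panel and that of Hspa1b have a wider vertical axis than the others.

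The order of arrays was shared across the cytosolic members. Batf-/- array 1 was the highest Batf-/- array in 9 of 9, and Batf+/+ array 2 the highest Batf+/+ array in 7 of 9. Batf+/+ array 3 was the lowest of its genotype in 9 of 9 and Batf-/- array 3 in 8 of 9. All 4 of these conditions held together in 7 of 9 cytosolic members (Bag3, Dnajb1, Hsp90aa1, Hspa1a, Hspa1b, Hspa4 and Hsph1), in 1 of 3 mitochondrial members (Hspd1), in 3 of 21 ER members (Calr, Dnajb9 and Pdia6) and in 2.64% of all genes. It held in 2 of 31 other cytosolic chaperones (Cacybp and Dnajb4, named after their values were seen), a list that also holds co-chaperones of HSP70. The order was looked for after the values of Hspa1a were seen, so Hspa1a meets it by definition. Hspa1b, whose signal may not be separate from that of Hspa1a, is not independent of it. Of the 1% of genes with the widest within-genotype spread (181 genes), 5 were cytosolic members, Hspa1a, Hspa1b, Hsph1, Bag3 and Dnajb1, and 1 was an ER member, Dnajb9.

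Immediate early genes, which cells switch on soon after stimulation or handling, followed the same arrays in part. The list of 17 measured immediate early and dissociation genes had medians of 0, 0.13 and -0.27 on the Batf+/+ arrays and 0.25, 0.027 and -0.20 on the Batf-/- arrays. In 9 of the 17 genes, among them Fos, Fosb, Jun, Junb and Dusp1, all 4 conditions of array order held, and 8 of the 17 were in the widest 1%. The other 8 did not meet all 4 conditions. Ier3, also in the widest 1%, was at 0, -0.44 and 0.013 in Batf+/+ and at 0.44, 0.46 and 1.62 in Batf-/- cells, so it was lowest on Batf+/+ array 2 and highest on Batf-/- array 3 (difference 0.98 ± 0.29, unadjusted p = 0.0083, limma adjusted p = 0.28). Egr2 was at 0.050, -0.12 and 0.11 in Batf+/+ and at -0.53, -0.35 and -0.086 in Batf-/- cells, the reverse order. These genes were named after their values were seen. Of the 17, 0 were called by limma between genotypes and 2 had an unadjusted p below 0.05. Their part in the spread of the heat shock genes was not tested. The median of the cytosolic members was 0, 0.26 and -0.30 on the Batf+/+ arrays and 0.25, -0.0038 and -0.38 on the Batf-/- arrays.

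**Figure D3:**
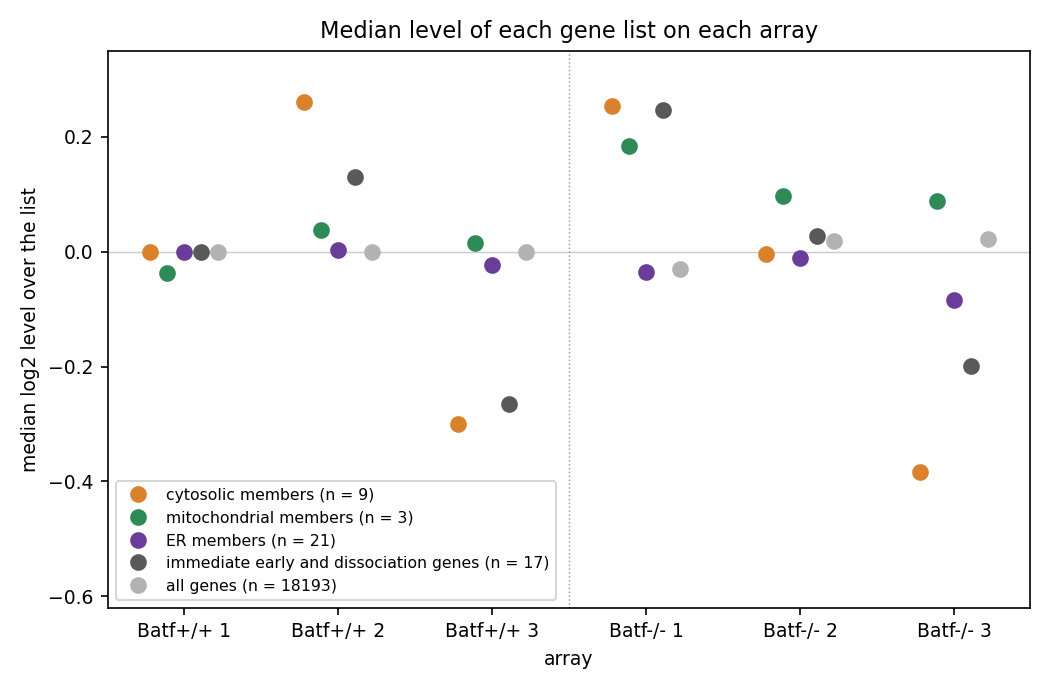
Median log2 level of the cytosolic, mitochondrial and ER members, of the immediate early and dissociation genes and of all genes on each of the 6 arrays, drawn side by side within an array. Cytosolic members and immediate early genes are high on Batf+/+ array 2 and Batf-/- array 1 and low on both arrays numbered 3, while the ER medians lie between -0.084 and 0.0039.

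The plot of within-genotype spread against genotype difference sets the members against all genes. Hspa1a and Hspa1b stand above every other gene in spread, yet near 0 in difference.

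**Figure D4:**
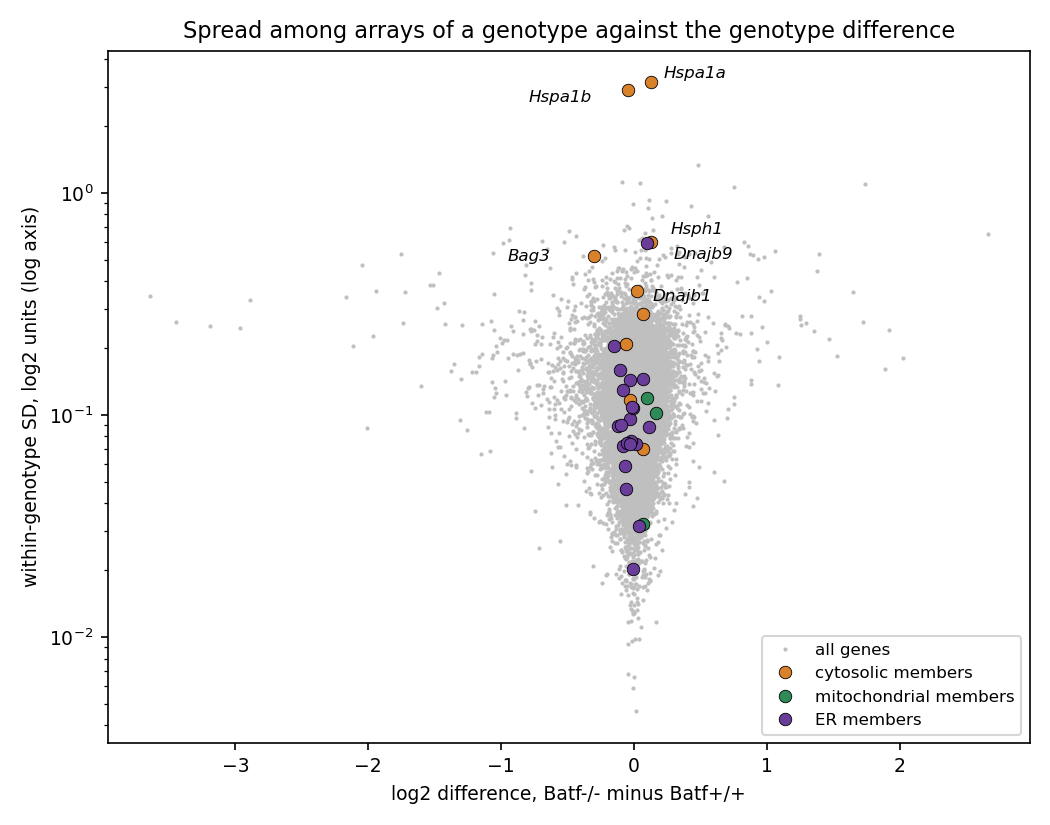
Within-genotype SD in log2 units (vertical, log axis) against the log2 difference between genotypes (horizontal) for all 18193 genes in grey and for the members in colour. Hspa1a and Hspa1b lie at 3.15 and 2.91, above the 1.34 of the next gene, and the ER members lie from 0.020 to 0.59.

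The 3 mitochondrial members all had small positive differences, with a median of 0.094. Hspe1, the HSP10 lid of the chaperonin, was at -0.19, 0.013 and 0.077 in Batf+/+ and at 0.18, 0.097 and 0.12 in Batf-/- cells. Its groups did not overlap, since the lowest Batf-/- array lay just above the highest Batf+/+ array. The difference of 0.17 ± 0.088 (95% interval -0.032 to 0.37, unadjusted p = 0.0902, adjusted p = 0.802) was not called, and its 2 probe sets, at 0.14 and 0.20, each overlapped. Hspa9, the mitochondrial HSP70, was at -0.037, 0.038 and 0.015 in Batf+/+ and at 0.044, 0.087 and 0.088 in Batf-/- cells. It too did not overlap, with a difference of 0.068 ± 0.070 (adjusted p = 0.995) and 5 of 5 probe sets above 0. Hspd1, the HSP60 partner of Hspe1, was at 0, 0.043 and -0.028 in Batf+/+ and at 0.23, 0.16 and -0.088 in Batf-/- cells, where array 3 was low and overlapped the controls. The other 13 measured mitochondrial chaperones and proteases had a median of -0.0052, with 5 above 0 and 0 called.

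Among the ER members, none was called in either direction (0 of 21), 0 had an unadjusted p below 0.05 and 0 had arrays that did not overlap. Their median log2 difference was -0.029, with 16 below 0 and 5 above, where 48.2% of all genes were below 0. On the single arrays the median over the 21 genes was 0, 0.0039 and -0.023 in Batf+/+ and -0.035, -0.011 and -0.084 in Batf-/- cells. Batf-/- array 3 was the lowest and Batf+/+ array 3 overlapped Batf-/- array 2. Their median within-genotype SD was 0.089, against 0.36 for the cytosolic members.

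The core chaperones of the ER lumen, Hspa5 and Hsp90b1, were not called. Hspa5 was at -0.054, 0.024 and -0.19 in Batf+/+ and at -0.13, -0.011 and -0.18 in Batf-/- cells, a difference of -0.033 ± 0.086 (95% interval -0.23 to 0.16). The interval bounds the change of this standard marker of the unfolded protein response. Hsp90b1, the ER form of HSP90, was at 0.069, -0.046 and 0.077 in Batf+/+ and at 0.19, -0.36 and -0.17 in Batf-/- cells, with the widest range between Batf-/- arrays after Dnajb9. Its difference of -0.15 ± 0.13 (adjusted p = 0.978) was the lowest of the ER members, with a 95% interval of -0.45 to 0.15, and its 2 probe sets gave -0.28 and -0.015. Omitting Batf-/- array 1 gave -0.30 (limma adjusted p = 0.297), omitting Batf-/- array 2 gave -0.025, and omitting Batf-/- array 1 together with Batf+/+ array 2 gave -0.34 (adjusted p = 0.422).

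The lectin chaperones Calr and Canx, which hold newly made glycoproteins, had low spread. Calr was at 0, 0.063 and -0.13 in Batf+/+ and at -0.082, -0.095 and -0.14 in Batf-/- cells, a difference of -0.083 ± 0.079 with 3 of 3 probe sets below 0. Canx was at 0.069, -0.061 and 0.013 in Batf+/+ and at -0.041, -0.059 and -0.054 in Batf-/- cells. In both genes the Batf-/- arrays lay near the lower end of the Batf+/+ range or, on Calr array 3, just under it.

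Of the protein disulfide isomerases, which form and shuffle disulfide bonds, 0 of 3 were called, and each interval covered 0. Pdia4 was at -0.041, 0.098 and -0.023 in Batf+/+ and at 0.17, 0.20 and 0.011 in Batf-/- cells, the highest difference of an ER member (0.11 ± 0.083, adjusted p = 0.936). Pdia6 was at 0, 0.057 and -0.23 in Batf+/+ and at -0.038, -0.14 and -0.24 in Batf-/- cells, a difference of -0.082 ± 0.098. For Pdia3, which works with calreticulin and calnexin, the difference was -0.0055 ± 0.090. Groups overlapped in all 3.

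The ER co-chaperones held the gene with the widest spread outside the cytosol. Dnajb9, a J protein that represses IRE1 through BiP, was at 0, 0.12 and -0.99 in Batf+/+ and at 0.21, 0.058 and -0.85 in Batf-/- cells. Both arrays numbered 3 were low by about the same amount, and the genotype difference was 0.099 ± 0.33 (95% interval -0.65 to 0.85). Dnajc3, a J protein that also restrains PERK, was at 0.042, -0.15 and 0.050 in Batf+/+ and at -0.13, -0.20 and -0.088 in Batf-/- cells, a difference of -0.12 ± 0.084 with 5 of 5 probe sets below 0. One of these had an unadjusted p below 0.05, at -0.35 (limma adjusted p over all probe sets 0.593).

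The remaining folding factors were not called. Dnajb11 differed by -0.0064 ± 0.069, with all 6 arrays between -0.041 and 0.0074. Hyou1, a large nucleotide exchange factor for BiP, differed by 0.039 ± 0.070. Sdf2l1, a partner of Dnajb11, was at 0, -0.0065 and 0.26 in Batf+/+ and at -0.13, -0.12 and 0.17 in Batf-/- cells, so that here the arrays numbered 3 were high and the difference was -0.11 ± 0.11. Creld2 and Manf, small ER proteins induced by stress, differed by -0.066 ± 0.075 and -0.027 ± 0.079.

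The stress sensors and the degradation machinery were likewise without a call. Ern1, which encodes IRE1, was at 0, 0.15 and -0.061 in Batf+/+ and at -0.0026, 0.020 and 0.00057 in Batf-/- cells (-0.023 ± 0.080). Eif2ak3, which encodes PERK, was at -0.020, 0 and -0.17 in Batf+/+ and at -0.073, 0.075 and -0.28 in Batf-/- cells (-0.029 ± 0.10). In both sensors the Batf-/- mean lay inside the Batf+/+ range.

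Sel1l and Syvn1 form the ubiquitin ligase that clears misfolded proteins from the ER. Sel1l was at 0.10, 0 and -0.14 in Batf+/+ and at -0.11, -0.073 and -0.15 in Batf-/- cells (-0.099 ± 0.084). Of its 5 probe sets, 2 had all Batf-/- arrays below all Batf+/+ arrays, and the lowest, at -0.35, had the smallest adjusted p of any member's probe set (0.348), while another was at 0.10. Syvn1 differed by 0.068 ± 0.10, Herpud1 by -0.053 ± 0.079 and Edem1, a lectin that directs glycoproteins to degradation, by 0.016 ± 0.079. The translocon subunit Sec61b differed by -0.019 ± 0.090.

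**Figure D5:**
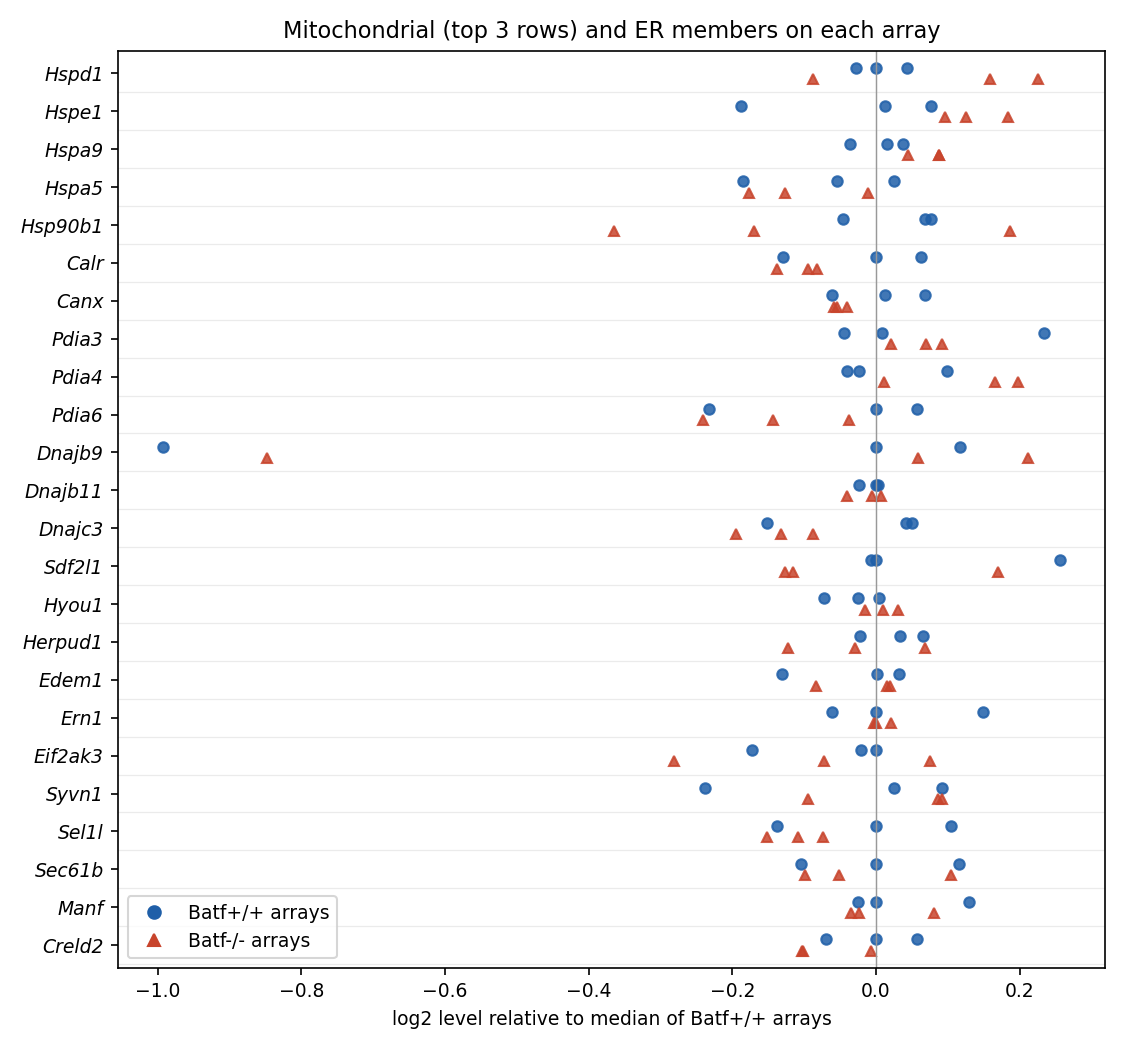
Log2 level of the 3 mitochondrial and 21 ER members on each array, set against the middle Batf+/+ array, with circles for Batf+/+ and triangles for Batf-/-. Most points lie within 0.3 of 0, Dnajb9 is near -0.99 and -0.85 on the arrays numbered 3, and only in Hspe1 and Hspa9 do the genotypes not overlap.

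The ER members grouped by the promoter element showed 0 calls on both sides. The 8 with an ERSE had differences from -0.15 to 0.068 with a median of -0.074, 7 of them below 0. The 11 with a sequence but no ERSE ran from -0.11 to 0.11 with a median of -0.019, 8 of them below 0. No test was made of these groups.

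Other genes of the pathways were read from the same comparison. Of 12 regulators of the unfolded protein response, 0 were called by limma (1, Atf6, at an unadjusted p below 0.05). Their median was -0.052 with 10 below 0, where 48.2% of all genes were below 0. The arrays of 4 of the 12 did not overlap between genotypes, 3 with Batf-/- lower and 1 with it higher, against 12% of all genes. Xbp1, the transcription factor spliced by IRE1, differed by -0.060 ± 0.074 (limma adjusted p = 1). Its splicing is not resolved by these values. Atf6 was at -0.020, 0.057 and -0.071 in Batf+/+ and at -0.19, -0.30 and -0.41 in Batf-/- cells. All Batf-/- arrays lay below all Batf+/+ arrays, and the difference of -0.29 ± 0.083 (unadjusted p = 0.00729, adjusted p = 0.258) did not pass.

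Of 18 genes downstream of PERK and ATF4, 0 were called, with a median of -0.027. Atf4 differed by 0.054 ± 0.13 and Ddit3, which encodes CHOP, by -0.16 ± 0.18. Ppp1r15a, the GADD34 subunit that ends the PERK response, was at 0, 0.14 and -0.98 in Batf+/+ and at 0.20, -0.13 and -0.75 in Batf-/- cells, low on the arrays numbered 3 as Dnajb9 was. In 5 of the 18 genes, Atf3, Atf4, Cebpb, Ppp1r15a and Trib3, the array order of Hspa1a held (Atf3, Cebpb and Trib3 are named after their values were seen).

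The further ER lists gave no calls. The 23 other folding enzymes had a median of -0.023, the 21 genes of ER-associated degradation one of -0.026 and the 25 of translocation and glycosylation one of -0.020, each with 0 called by limma and 1, 0 and 0 at an unadjusted p below 0.05. P4hb, the founding protein disulfide isomerase, differed by -0.089 ± 0.074. Of 31 other cytosolic chaperones 0 were called by limma and 2 had an unadjusted p below 0.05, with a median of -0.0052. Hspb1, the small heat shock protein HSP27, differed by -0.084 ± 0.15, Hsf2 by 0.022 ± 0.11 and the HSP70 to HSP90 adaptor Stip1 by -0.0052 ± 0.10. The 13 subunits of TRiC and prefoldin had a median of 0.032.

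Markers of other cell types were read because plasma cells are rich in ER chaperones. Of 8 measured plasma cell markers, Irf4 was called higher (0.54 ± 0.10, adjusted p = 0.0454) and Prdm1 lower (-0.78 ± 0.12, adjusted p = 0.0132), both genes that Treg cells also use. In this list 4 of 8 markers had an unadjusted p below 0.05, 3 of them higher, against 7.69% of all genes, and 4 of 8 did not overlap between genotypes, against 12%. The other 2 at an unadjusted p below 0.05, named after their values were seen, were Tnfrsf17, which encodes BCMA (0.34 ± 0.14, adjusted p = 0.545), and Mzb1, an ER protein of antibody-secreting cells (0.22 ± 0.082, adjusted p = 0.468). Irf4 lost its call in 11 and Prdm1 in 5 of the 15 alternative analyses. Jchain, the joining chain of secreted antibodies, and Sdc1, the plasma cell surface marker CD138, differed by 0.11 ± 0.077 and -0.13 ± 0.077 and were not called. The plasma cell list had medians from -0.014 to 0 on Batf+/+ and from -0.016 to 0.054 on Batf-/- arrays. Medians over the 7 B cell markers ranged from -0.072 to 0.017 and from 0.053 to 0.18. Those over the 8 myeloid markers ranged from -0.079 to 0.10 and from -0.26 to 0.17. For the markers of CD8 T and NK cells the medians ranged from -0.10 to 0.11 and from -0.099 to 0.072. Some single markers of these lists varied more than the medians. In these 3 lists limma called 0 markers, and 0, 0 and 1 had an unadjusted p below 0.05. The 8 Treg and CD4 T cell markers had medians from 0 to 0.0034 and from -0.13 to -0.063, with 0 called and 2 at an unadjusted p below 0.05. Here too 4 of 8 did not overlap between genotypes, 3 with the Batf-/- arrays lower and 1 with them higher, against 12% of all genes. Differences ran from -0.51 (Ikzf2) to 0.21 (Il2ra), both named after their values were seen. The smallest limma adjusted p of the list was 0.0526, just above the threshold. The ranges of the B cell and of the Treg and CD4 T cell medians did not overlap between genotypes. Medians of the mitochondrial members and of the regulators of the unfolded protein response did not overlap either. Centring on the middle Batf+/+ array draws list medians towards 0 on the Batf+/+ arrays only. It does not fix them there, since the cytosolic medians ran from -0.30 to 0.26 on those arrays. Over all genes the medians were 0, 0 and 0 on the Batf+/+ arrays and -0.029, 0.019 and 0.022 on the Batf-/- arrays. The centring can favour a gap between list medians, so such a gap, which was not tested, is not read as a difference. Gene by gene, arrays did not overlap in 2 of 3 mitochondrial members, 4 of 12 of these regulators and 0 of 7 B cell markers. Among all genes the share was 12%. Foxp3 differed by -0.12 ± 0.078 and was not called. It was at 0.041, 0 and -0.145 in Batf+/+ and at -0.152, -0.165 and -0.159 in Batf-/- cells, so its arrays did not overlap. The part of these cell types in the results was not tested.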

How the data were processed

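Per the submitters' processing notes, RMA was the step behind the authors' deposited values, read here as log2, the scale RMA gives, since no log base is stated. In all 45101 probe sets of the deposited values the middle Batf+/+ array is exactly 0, so the values are centred and hold no absolute level, and no filter on dim probe sets was possible. Labelling was at the 3' end, per the labels' protocols. Of the probe sets, 34945 had 1 gene in the platform annotation, 932 several, 9160 none listed and 64 were controls. A gene is the mean of its probe sets. Genotypes were compared with limma 3.58.1 in R 4.3.3 (lmFit, eBayes, genotype only), with Benjamini-Hochberg adjustment over 18193 genes and a call at an adjusted p below 0.05. Fold ranges are 2 to the power of a log2 range. Members and lists were chosen with earlier results of these data known. Named genes are all measured members, Batf, up to 4 called genes of each of 14 further lists and 12 genes fixed by name. The number of arrays limits precision. On simulated data of 18193 genes with the spread of this comparison, 90.9% of log2 changes of 1 and 51.5% of those of 0.5 were recovered. For the replicate numbers in the titles, deviations from the genotype mean correlated at 0.407, 0.154 and 0.413 across genes within a number. A pairing was thus read from the values alone and was run only as an alternative, the replicate block. The main fit leaves it out, as do the standard errors and intervals given with the differences. The block called 293 of all genes, against 208 in the main fit. Promoter windows were searched for exact letters. Alternatives: a replicate block, every probe set tested, the median of probe sets, no probe sets with the suffix _a, _s or _x, quantile normalization, equal array medians, array weights and each array left out.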

Additional observations from a re-analysis of the deposited data

How the results depend on the processing

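In 13 alternative analyses and 2 more chosen after seeing the data, 0 of the 33 members were called, with or without the replicate block. Hsph1, Hspa5, Hsp90b1 and Calr have 14 of these, since all their probe sets drop out without those of suffix _a, _s or _x. The smallest adjusted p was 0.297 (Hsp90b1). The sign of the difference held in every alternative run for the gene for 14 members and turned in at least 1 for 19. The alternatives reuse the same 6 arrays, and every member's interval in the main fit covers 0. No direction is therefore claimed for any member. The filter on low values was not run, since the values are centred. The median of the ER members was -0.066 with every probe set tested, where a gene is read from its probe set of smallest p. Leaving out 1 array gave medians of -0.17 to 0.21 for cytosolic, 0.064 to 0.17 for mitochondrial and -0.055 to -0.020 for ER members, and the mitochondrial median was 0.17 without both arrays numbered 3. Over all genes, 91 were higher with the replicate block, and 23 higher and 58 lower after quantile normalization. Quantile normalization was run on the centred values. Their SD over probe sets was 0.12 to 0.17 on Batf+/+ and 0.24 to 0.26 on Batf-/- arrays. It gives every array the same distribution and so narrows the wider Batf-/- values, and calls lost with it do not measure dependence on processing. Leaving out 1 array gave 31 to 51 higher (31 without Batf+/+ array 1, 32 without Batf+/+ array 2 or 3, 36 without Batf-/- array 1) and 73 to 141 lower (78 and 73 without Batf+/+ array 1 or 2, 94 without Batf-/- array 2). Without Batf+/+ array 2 and Batf-/- array 1 there were 20 higher and 61 lower genes, and without both arrays numbered 3 there were 25 and 94. In the 14 further lists, 1 higher gene (Irf4) and 1 lower gene (Prdm1) became 0 higher with every probe set tested, with the median of probe sets, with equal array medians and without both arrays numbered 3. They became 0 and 0 after quantile normalization and without Batf+/+ array 2 and Batf-/- array 1, and 0 to 1 each way with 1 array left out. Lower genes were 2 (Ikzf2 added) with the median of probe sets and with array weights. The cause of these shifts was not tested beyond the smaller number of arrays. With Hspa1a and Hspa1b included, the members did not pair by replicate number as all genes did. Their deviations within numbers 1, 2 and 3 correlated at -0.88, -0.91 and 0.98. Without Hspa1a and Hspa1b these values were 0.43, 0.60 and 0.89, and between unlike numbers they ran from -0.83 to 0.77. Signal over background is not known from centred values.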
